A study of Sus scrofa with 4 samples.

Results

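Cuproptosis is a form of cell death in which copper binds lipoylated enzymes of the mitochondrial matrix, and its core genes are at the same time genes of ordinary pyruvate metabolism. The messenger RNA of 7 such genes was examined in porcine oocytes matured with or without added Cu. FDX1, LIAS and LIPT1 make or attach the lipoyl group, whereas PDHA1, PDHB, DLAT and DLD encode the pyruvate dehydrogenase complex. The genes were chosen by symbol for their known function, with earlier results of these data known. Of the 16050 genes with values in the deposited table, 7 carry these symbols. All 7 were listed with values. LIPT1 stayed below 1 FPKM in every library and did not enter the test, so 6 of the 7 genes were among the 8541 genes tested.

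Lipoate is a sulfur-containing cofactor that is built on a lysine of a few mitochondrial proteins. In pyruvate dehydrogenase it works as a swinging arm, which carries the acetyl group between the active sites of the complex. LIAS, an iron-sulfur enzyme, inserts the sulfur atoms, and FDX1, a small iron-sulfur protein of the matrix, is needed for this step and can also reduce copper. LIPT1 hands the finished lipoyl group on to the E2 subunits. The oocyte uses little glucose by itself and burns pyruvate supplied by the surrounding cumulus cells, which makes pyruvate dehydrogenase a central enzyme of meiotic maturation.

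Oocytes were matured to metaphase II as cumulus-oocyte complexes for 44 h in medium without added Cu (Control) or with copper sulfate at 25 μg/mL (Cu), a dose and time that the methods give for the experiments in general. Each library was made by Smart-seq2 amplification from a set of 3 oocytes. The 4 libraries analysed here are Control 1, Control 2, Cu 1 and Cu 3, hence 2 per group, whereas the methods give 3 sets for each group. The table also holds the authors' mean of each group, without its spread. It is not the mean of the libraries analysed here, since for PDHB and LIPT1 the mean for Cu lies outside the range of Cu 1 and Cu 3, so that it covers samples not analysed here. Where it is printed, it describes another set of samples than the values beside it. The ovaries came from a slaughterhouse, and which animals a set came from is not stated. The unit is FPKM, fragments divided by the length of the transcript and by the size of the library. The methods give reverse transcription with oligo dT and amplification by PCR. How evenly these steps captured different genes was not tested, so an order or ratio of genes below is one of FPKM. The number of reads behind a value is unknown.

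Cu 1 stood apart from the other libraries. It had 9364 genes at 1 FPKM or more, against 7923 to 8162 in the others. Across genes, its Pearson correlation on the log2(FPKM + 1) scale was 0.954 with both Control libraries and 0.955 with Cu 3. Cu 3 was closer to Control 1 (0.978) and Control 2 (0.981) than to Cu 1. A log2 fold change or median without Cu 1 is given for most tested members and related lists, but not for every gene named. Of 12 oocyte markers, 11 were at 1 FPKM or more in every library, and their summed level was 4619 FPKM in Control 1 and 6034 in Control 2, against 8206 in Cu 1 and 6098 in Cu 3. Of 17 markers of cumulus and granulosa cells, 12 had values, 9 of which were below 1 FPKM in every library, with AMH listed at 0 in all 4 libraries and CYP19A1 at 0.06 FPKM or less, while CYP11A1, FSHR, LHCGR and INHA were listed without values. Their summed level was 13.3 FPKM in Control 1 and 20.9 in Control 2, against 30.6 in Cu 1 and 27.6 in Cu 3. Most of that difference was SERPINE2, a secreted protease inhibitor, with 1.59 and 2.93 FPKM in the Control libraries and 14.2 and 12.7 FPKM in the Cu libraries. Most of the summed level in both Control libraries was FST, at 10.24 FPKM (Control 1), 15.95 (Control 2), 13.74 (Cu 1) and 13.8 (Cu 3). VCAN lay between 0.49 FPKM (Cu 3) and 1.43 FPKM (Control 2). The part of the cumulus and granulosa markers in the results below was not tested. Only 2 of 6 blood and vessel markers had values. In such libraries, less RNA of a gene per oocyte and fewer oocytes that contain it cannot be told apart.

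FDX1 had the highest FPKM of the 7 genes in every library. The gene (identifier 397133) lies on chromosome 9, from 38376147 to 38399026 in Sscrofa11.1. It had 52.5 FPKM in Control 1 and 38.3 in Control 2, against 53.8 in Cu 1 and 56.9 in Cu 3. Both Cu values were above both Control values, but Cu 1 exceeded Control 1 by a factor of only 1.03, while the Control libraries differed from each other by a factor of 1.37. The log2 fold change was 0.30 (standard error, SE, 0.32, adjusted p = 0.84 in limma's test), smaller than its error. Relative to the median of all genes it was -0.13 without Control 2 and -0.055 without Cu 3. The authors' mean of FDX1 was 41.2 FPKM for Control and 51.9 FPKM for Cu.

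LIAS, lipoyl synthase (identifier 100627627; chromosome 8, 30699278 to 30717009), had 30.8 and 27.2 FPKM in Control 1 and 2. It had 50.5 and 41.1 FPKM in Cu 1 and 3. The groups did not overlap, and the difference between the groups was larger than that between the libraries of either one, which differed by factors of 1.13 and 1.23. The log2 fold change of LIAS was 0.64 (SE 0.31, adjusted p = 0.71 in limma's test over all genes), the smallest p of the 6 tested genes and rank 1061 of 8541. LIAS was still higher without Cu 1, with a log2 fold change of 0.49. The authors' mean of LIAS was 28.7 FPKM for Control and 46.7 FPKM for Cu.

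LIPT1, lipoyltransferase 1 (identifier 100622302; chromosome 3, 55176387 to 55177508), was the weakest of the 7 genes. It had 0.72 FPKM in Control 1 and 0.88 in Control 2, against 0.44 in Cu 1 and 0.33 in Cu 3. Both Cu values were thus below both Control values, by a ratio of the means of 0.48, and the authors' means were 0.84 and 0.29 FPKM. Between 47.1% and 47.9% of all genes with values had a lower FPKM in the Control libraries, and 32.6% and 37.8% did in Cu 1 and 3. With all 15559 genes above 0 in any library entered into the test, the log2 fold change of LIPT1 was -0.38 (SE 0.18, adjusted p = 0.82 in limma's test), a scale on which the added 1 outweighs the FPKM of this gene. LIPT2, which attaches the lipoyl precursor before LIAS acts, was listed at 0 in Control 1 and had 0.12, 0.08 and 0.18 FPKM in Control 2, Cu 1 and Cu 3.

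**Figure D1:**
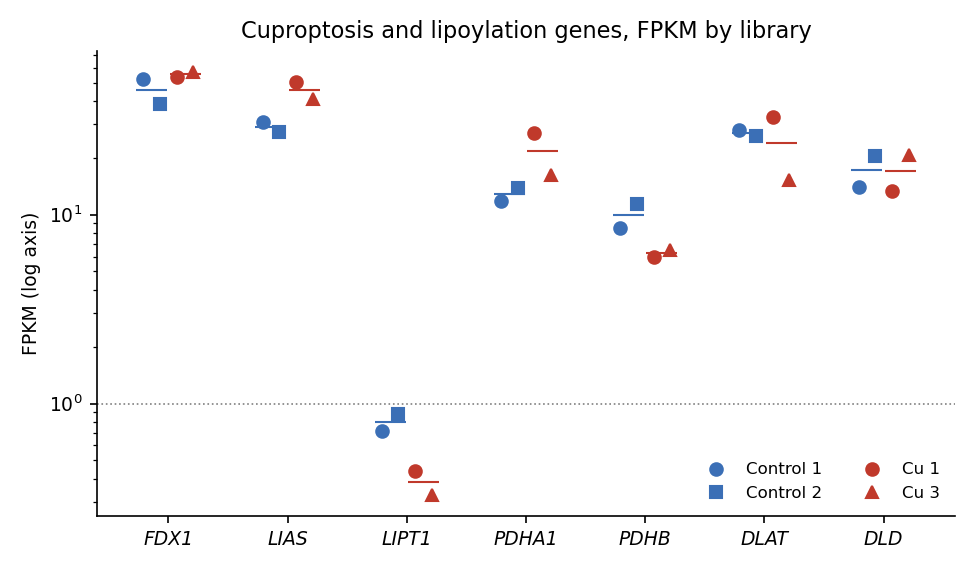
FPKM of the 7 genes (vertical log axis) in each library, Control in blue and Cu in red, with short lines at the mean of each group and a dotted line at 1 FPKM. FDX1 and LIAS are at the top in all libraries, LIPT1 is the only gene below 1 FPKM, and the groups are apart for FDX1, LIAS, LIPT1, PDHA1 and PDHB but overlap for DLAT and DLD.

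The pyruvate dehydrogenase complex begins with E1, which removes carbon dioxide from pyruvate and is built from equal numbers of alpha and beta subunits. The alpha subunit gene PDHA1 (identifier 100294678), on the X chromosome from 15699924 to 15718908, had 11.8 FPKM in Control 1 and 13.8 in Control 2, against 27.0 in Cu 1 and 16.3 in Cu 3. Each Cu library exceeded each Control library, but Cu 3 exceeded Control 2 by a factor of only 1.18, and the Cu libraries differed by a factor of 1.66. The log2 fold change of PDHA1 was 0.68 (SE 0.38, adjusted p = 0.74 in limma's test). It was 0.33 without Cu 1. Without Cu 3, it was 1.03 and the adjusted p from limma was 0.038, a fit with 1 Cu library in which 20.5% of all genes passed the same limit. The authors' means of PDHA1, over other samples too, were 15.6 FPKM for Control, above both Control libraries, and 19.4 FPKM for Cu. The autosomal PDHA2, a copy of the gene used in the testis, is listed in the table without values.

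The beta subunit gene PDHB (identifier 100516042; chromosome 13, 40161519 to 40167502) lay in the opposite direction. It had 8.49 FPKM in Control 1 and 11.3 in Control 2, against 5.99 in Cu 1 and 6.5 in Cu 3. Both Cu libraries were below both Control libraries and close to each other, with a factor of 1.09 between them. The log2 fold change of PDHB was -0.58 (SE 0.36, adjusted p = 0.76 in limma's test), and -0.53 without Cu 1. The authors' means of PDHB, over other samples too, were 9.45 FPKM for Control and 9.01 FPKM for Cu, the latter above both Cu libraries and above Control 1. The separation of the groups is thus a statement on the 4 libraries alone.

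E2 is DLAT, the core of the complex, which bears the lipoyl groups and is the protein to which copper binding was linked in cuproptosis. DLAT (identifier 397054; chromosome 9, 39738639 to 39763813) had 28.1 FPKM in Control 1 and 26.0 in Control 2, against 32.9 in Cu 1 and 15.3 in Cu 3. One Cu library was above both Control libraries and the other below them, and the Cu libraries differed by a factor of 2.15, the widest gap among the 7 genes in either group. The log2 fold change of DLAT was -0.26 (SE 0.44, adjusted p = 0.91 in limma's test), and its sign depended on the library. It was -0.78 without Cu 1 and 0.27 without Cu 3. The authors' means of DLAT were 28.2 FPKM for Control and 21.9 FPKM for Cu.

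E3 is DLD, which reoxidizes the lipoyl arm and is shared with the other lipoylated complexes. DLD (identifier 397129; chromosome 9, 107642129 to 107668443) had 13.9 FPKM in Control 1 and 20.4 in Control 2, against 13.3 in Cu 1 and 20.8 in Cu 3. The groups overlapped almost entirely, and the log2 fold change of DLD was -0.018 (SE 0.40, adjusted p = 0.99 in limma's test). Its 95% interval reached from -0.99 to 0.95, which covers nearly all changes up to a log2 unit in either direction. It was 0.28 without Cu 1 and 0.24 without Control 2. The authors' means of DLD were 17.0 FPKM for Control and 19.2 FPKM for Cu, in the opposite order to the log2 fold change.

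None of the 6 tested genes had an adjusted p at or under 0.05 by limma, and neither did any of the 8541 genes (0%). At an unadjusted p of 0.05 there were 0 of 6, whereas 5.58% of all tested genes were higher and 1.43% lower in Cu at that limit. These were 477 and 122 genes, or 361 and 288 with quantile normalization. The Cu libraries were both above the Control libraries in 3 of the 6 (FDX1, LIAS and PDHA1), against 25.4% of all genes, and below them in 1 of the 6 (PDHB), against 13.4%. With quantile normalization 1424 genes were above and 1949 below in this sense, in place of 2168 and 1145, and 2 and 1 of the 6. Of the 6, 3 had a positive and 3 a negative log2 fold change, with a median of 0.14. Of all 8541 genes, 5494 had a positive and 3047 a negative one. The median of all genes was 0.16, and scaling the libraries by quantiles, median of ratios or upper quartile brought it to between -0.049 and 0.047. Relative to the median of all genes, the log2 fold change was 0.51 for PDHA1, 0.47 for LIAS, 0.13 for FDX1, -0.18 for DLD, -0.42 for DLAT and -0.74 for PDHB. The sign of each of the 6 was the same under the 3 scalings, but the Cu libraries were no longer both above the Control libraries for FDX1. For a single gene the smallest p that an exact permutation test (two-sided) can reach with 2 libraries per group is 0.333.

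The range of differences that these libraries allow is wide. The 95% interval of the fold, on the FPKM + 1 scale, was 0.91 to 2.64 for LIAS and 0.83 to 3.07 for PDHA1. It was 0.36 to 1.24 for PDHB, 0.40 to 1.75 for DLAT and 0.72 to 2.10 for FDX1. All 6 intervals, that of DLD included, contained a fold of 1.

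**Figure D2:**
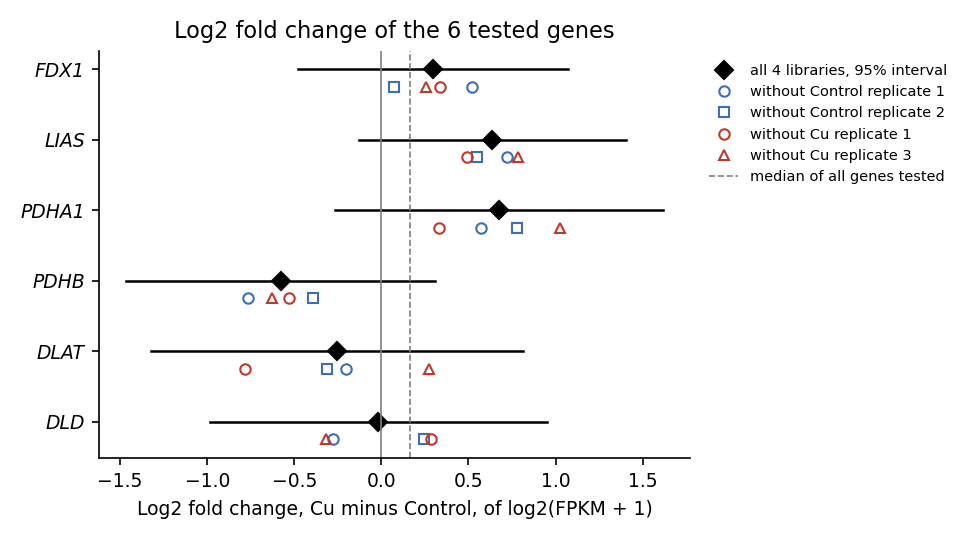
Log2 fold change between Cu and Control on the log2(FPKM + 1) scale (horizontal axis) of the 6 tested genes, with black diamonds and 95% intervals from all 4 libraries and open symbols for fits that leave out 1 library each. All 6 intervals include 0, the open symbols of FDX1, LIAS, PDHA1 and PDHB stay on the side of their diamond, and those of DLAT and DLD fall on both sides of 0.

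A ratio between genes within a library does not change when the whole library is multiplied by a factor. No test was run on these ratios. The ratio of PDHA1 to PDHB was 1.39 in Control 1 and 1.22 in Control 2, against 4.51 in Cu 1 and 2.50 in Cu 3. Both Cu libraries thus had more PDHA1 relative to PDHB than both Control libraries. This follows from the levels given above, with PDHA1 higher and PDHB lower in both Cu libraries, and is not a further result. The ratio of the authors' means, which cover other samples too, was 1.65 for Control and 2.15 for Cu. The ratio of DLAT to PDHA1 was 2.38 in Control 1 and 1.89 in Control 2, against 1.22 in Cu 1 and 0.94 in Cu 3, again without overlap, and the ratio of the authors' means was 1.81 for Control and 1.13 for Cu. Both ratios contain PDHA1 and are not independent of each other. How many other pairs of genes separate the groups in this way was not counted.

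The other ratios did not separate the groups. The ratio of DLD to DLAT was 0.50 in Control 1 and 0.79 in Control 2, against 0.41 in Cu 1 and 1.36 in Cu 3. The ratio of DLAT to PDHX, the gene of the E3-binding protein that is also lipoylated, was 0.51 in Control 1 and 0.29 in Control 2, against 0.79 in Cu 1 and 0.25 in Cu 3. For both, the Cu libraries enclosed the Control libraries.

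**Figure D3:**
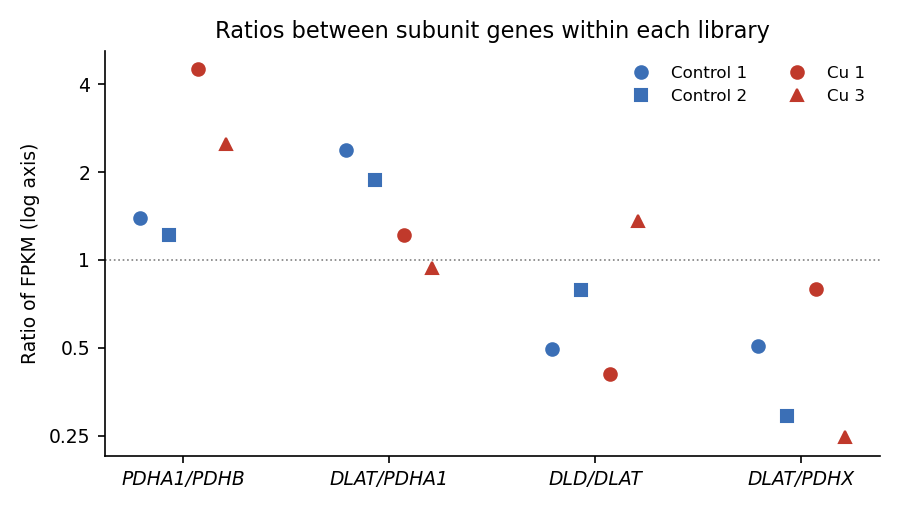
Ratio of FPKM between genes of pyruvate dehydrogenase (vertical log axis) within each library, Control in blue and Cu in red, with a dotted line at equal levels. PDHA1/PDHB is higher in both Cu libraries (2.50 and 4.51) than in both Control libraries (1.22 and 1.39), DLAT/PDHA1 is lower in both, and for DLD/DLAT and DLAT/PDHX the Cu points lie on either side of the Control points.

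In order of their mean FPKM in the Control libraries, the genes were FDX1 (45.4), LIAS (29.0), DLAT (27.0), DLD (17.2), PDHA1 (12.8), PDHB (9.91) and LIPT1 (0.80). LIAS and DLAT overlapped in their ranges, and all other neighbours in this order were apart. In the Cu libraries the means were 55.3 for FDX1, 45.8 for LIAS, 24.1 for DLAT, 21.6 for PDHA1, 17.1 for DLD, 6.25 for PDHB and 0.39 for LIPT1. Here DLAT and PDHA1 overlapped, as did PDHA1 and DLD, while LIAS was apart from DLAT. FDX1 was above between 89.2% and 92.2% of all genes with values in each library, and PDHB above between 65.4% and 77.5%.

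The lipoyl group is made from an octanoyl chain on the mitochondrial acyl carrier protein, and the genes of this supply line were mostly weak. Of 7 genes of lipoyl precursor synthesis and transfer, 5 were tested, 4 with a positive log2 fold change, against 5494 of all 8541 genes. The median of the list was 0.61 against 0.16 for all genes. The acyl carrier protein itself, NDUFAB1, had 5.46 FPKM in Control 1 and 5.59 in Control 2, against 312 in Cu 1 and 33.9 in Cu 3. It was the only gene of the list under an unadjusted p of 0.05, and its log2 fold change was 4.0 (SE 0.96, adjusted p = 0.63 in limma's test). NDUFAB1 is also a subunit of respiratory complex I. Without Cu 1 its log2 fold change was 2.42, and the median of the list was 0.088. The authors' means of NDUFAB1 were 6.88 FPKM for Control and 129 FPKM for Cu.

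Iron-sulfur clusters are the sulfur source of LIAS and the redox centre of FDX1. Of 16 genes of cluster assembly, 13 were tested, of which 10 had a positive and 3 a negative log2 fold change. Of all 8541 genes tested, 5494 were positive. The median of the list was 0.33, or 0.11 without Cu 1 and 0.82 without Cu 3. The Cu libraries were both above the Control libraries in 4 of the 13, near the share of all genes, and below them in 0. BOLA1, a factor of cluster assembly, was the only one at an unadjusted p of 0.05. It was listed at 0 in Control 1 and had 0.30 FPKM in Control 2 and 2.57 and 1.18 FPKM in Cu 1 and 3. Its adjusted p in limma's test was 0.64. BOLA1 reached 1 FPKM only in the Cu libraries and so entered the test through the group in which it was higher. The filter thus favoured its positive sign, and the counts above include it.

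Lipoate is also carried by the 2-oxoglutarate and branched-chain dehydrogenases and by the glycine cleavage system. Of 12 genes of these complexes and PDHX, 6 were tested, 3 with a positive and 3 with a negative log2 fold change and a median of 0.064, or 0.18 without Cu 1 and -0.27 without Cu 3. PDHX had 55.5 FPKM in Control 1 and 88.9 in Control 2, against 41.4 in Cu 1 and 61.9 in Cu 3, more than DLAT in every library, with overlapping groups. DLST, the lipoylated E2 of the 2-oxoglutarate complex, had 16.2 FPKM in Control 1 and 16.1 in Control 2, against 28.1 in Cu 1 and 22.3 in Cu 3. The groups were apart for DLST, with a log2 fold change of 0.60 (SE 0.33) and 0.73 as the adjusted p from limma. MRPS36, which links E3 to this complex, had the smallest p of the list and 31.99 FPKM in Control 1 and 33.2 in Control 2, against 52.0 in Cu 1 and 55.1 in Cu 3. The authors' means of MRPS36, over other samples too, were 59.5 FPKM for Control, above both Control libraries, and 49.8 FPKM for Cu, so the order of the groups is turned in them.

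GCSH, the lipoylated carrier of glycine cleavage, had 8.13 FPKM in Control 1 and 16.3 in Control 2, against 10.0 in Cu 1 and 22.4 in Cu 3, with overlapping groups. Its partner AMT, singled out after its values were seen, was listed at 0 in Control 1, Control 2 and Cu 3 and had 0.02 FPKM in Cu 1. OGDH, the E1 of the 2-oxoglutarate complex and also singled out afterwards, had 0.45 FPKM in Control 1 and 0.33 in Control 2, against 1.15 in Cu 1 and 0.19 in Cu 3, far below its partner DLST.

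The activity of pyruvate dehydrogenase is set by kinases that switch E1 off and phosphatases that switch it on again. Of 9 kinase and phosphatase genes of the lipoylated complexes, 6 were tested, with 4 positive and 2 negative log2 fold changes. The median was 0.15, or -0.29 without Cu 1, with 0 genes at an unadjusted p of 0.05. PDP1, among the positive ones, had 0.87 FPKM in Control 1 and 0.79 in Control 2, against 1.60 in Cu 1 and 1.59 in Cu 3. It thus entered the test only through the group in which it was higher, and the filter favoured its positive sign. With 1 FPKM required in every library, the median of the list was 0.099. The kinase PDK1 had the smallest p of this list, with 4.33 FPKM in Control 1 and 3.87 in Control 2, against 1.84 in Cu 1 and 2.92 in Cu 3, a log2 fold change of -0.61 (SE 0.37).

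Of 6 further cuproptosis and copper transport genes, 4 were tested, with a median of 0.22, or -0.14 without Cu 1, 3 positive and 1 negative, and 0 at an unadjusted p of 0.05. The copper exporter ATP7B had the smallest p of these, with 1.60 FPKM in Control 1 and 2.05 in Control 2, against 3.41 in Cu 1 and 2.41 in Cu 3. For the supply of pyruvate, 4 rows of the 5 genes in the list were tested, with a median of -0.0063, 2 positive and 2 negative. MPC1, a subunit of the mitochondrial pyruvate carrier, had 75.1 FPKM in Control 1 and 38.4 in Control 2, against 112 in Cu 1 and 63.2 in Cu 3, with overlapping groups. No gene of any related list had an adjusted p at or under 0.05 by limma with all 4 libraries. With Cu 3 left out, NDUFAB1, BOLA1, MPC1, ISCA1, LYRM4 and HSD17B8 of the 38 tested passed this limit, as did 20.5% of all genes. With Cu 1 left out NDUFAB1 did, as did 2.18% of all genes.

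**Figure D4:**
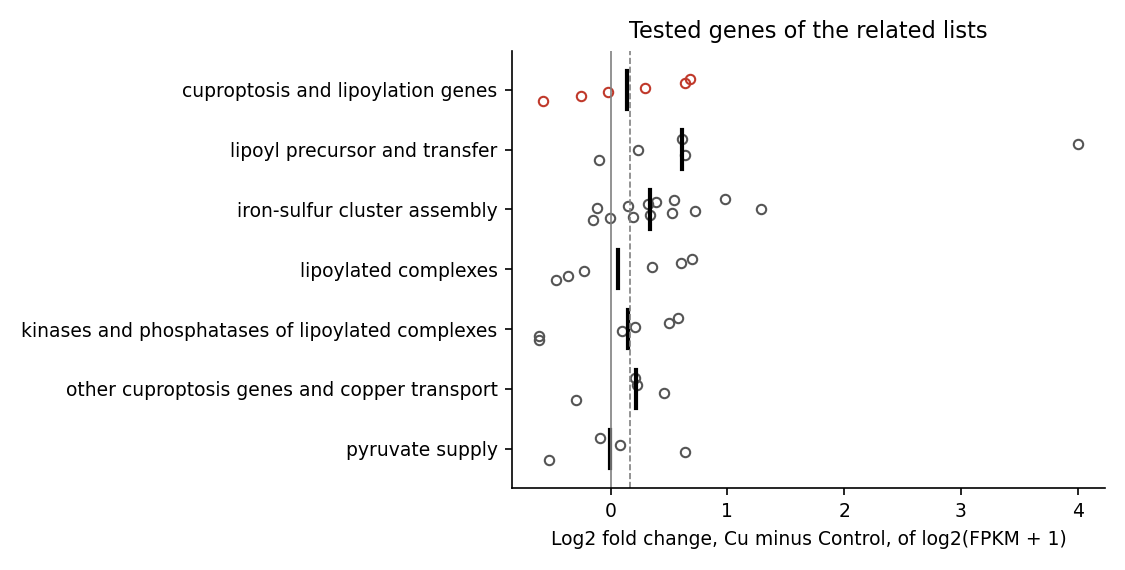
Log2 fold change between Cu and Control on the log2(FPKM + 1) scale (horizontal axis) of each tested gene of the 7 lists, 1 open circle per gene, with a black bar at the median of each list and a dashed line at the median of all genes (0.16). The 6 tested cuproptosis and lipoylation genes in red lie between -0.58 and 0.68 around that line, and the point far to the right is NDUFAB1 at 4.0.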

How the data were processed

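Single-cell RNA-seq values of 4 libraries of porcine oocytes, grouped by their labels, were analysed. According to the methods, reads were filtered with SOAPnuke, mapped with HISAT2 and Bowtie2, and quantified with RSEM. The submitters' processing notes instead name TopHat2 2.0.13, Cufflinks 2.2.1, Cuffnorm, Cuffdiff and the build Sscrofa11.1, and which set made the table is not settled. The authors deposited FPKM rounded to 2 decimals (30684 rows, 16050 with values) and their mean FPKM of each group, which covers samples not analysed here and is used only as their mean. FPKM keep no read number, so depth and counting error are unknown.

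From these, log2(FPKM + 1) was taken for the genes that reached 1 FPKM in 2 libraries or more. The test of Cu against Control was that of limma 3.58.1, run in R 4.3.3 (variance trend, Benjamini-Hochberg adjustment over 8541 genes). The count model of the study's methods needs counts and was left out. The members and lists were chosen with earlier results of these data known. By a rule set beforehand, the text names all members, PDHX, LIPT2, DLST and GCSH. From each related list it names the genes at an unadjusted p of 0.05 or, failing that, the gene with the smallest p. Named outside this rule are PDHA2, the cell markers, AMT and OGDH, and PDP1 for how it entered the test. ISCA1, LYRM4 and HSD17B8 are named only from the fit without Cu 3. Gene positions are from RefSeq's table of Sscrofa11.1, which held all 16050 identifiers. FDX2 and CDKN2A were not analysed here. Alternatives were another pseudocount, other filters, 3 scalings, no variance trend and leaving out each library.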

Additional observations from a re-analysis of the deposited data

How the results depend on the processing

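The log2 fold changes of FDX1, LIAS, PDHA1 and PDHB kept their direction under all 11 alternatives. With each library left out in turn they ranged from 0.075 to 0.52 for FDX1, 0.49 to 0.78 for LIAS, 0.33 to 1.03 for PDHA1, -0.77 to -0.39 for PDHB, -0.78 to 0.27 for DLAT and -0.32 to 0.28 for DLD. DLAT was reversed at 0.27 without Cu 3, and DLD at 0.24 without Control 2 and 0.28 without Cu 1. Under every setting with all 4 libraries, 0 members passed an adjusted or an unadjusted p of 0.05 in limma's test. Calls for PDHA1, LIAS and DLAT occurred only in fits with 1 Cu library, whose spread comes from the Control libraries alone. With a library left out, the Cu values were above the Control values in 3 to 4 members and below them in 1 to 2. Of the 8541 genes tested, 3005 to 4966 were then above and 1669 to 3168 below. The 3 scalings each gave 2 members above and 1 below, against 1424 to 1750 and 1578 to 1949 of the 8541 genes. Without a filter there were 3 above and 2 below, which adds LIPT1, against 3499 and 1614 of 15559 genes. The members' median, 0.14, ranged from 0.16 to 0.31 with a library left out and became -0.018 without a filter, -0.020 with quantile normalization and -0.031 with upper-quartile scaling.

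The medians of the related lists moved as follows. For lipoyl precursor and transfer the median was 0.95 with a pseudocount of 0.1, 0.23 without a filter or with 1 FPKM required in every library, and 0.36 with quantile normalization. For the lipoylated complexes it was 0.12 without a filter, and -0.13, -0.066 and -0.10 with quantile, median-of-ratios and upper-quartile scaling. For the kinases and phosphatases these scalings gave -0.072, 0.023 and -0.013, and for the further cuproptosis and copper transport genes 0.012, 0.095 and 0.066, with -0.042 at a pseudocount of 0.1. With a library left out, the medians ranged from 0.088 to 1.14 for lipoyl precursor and transfer, 0.11 to 0.82 for cluster assembly, -0.27 to 0.23 for the lipoylated complexes, -0.29 to 0.55 for the kinases and phosphatases, -0.14 to 0.75 for the copper list and -0.18 to 0.17 for pyruvate supply. The cause of these shifts was not tested.

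A fit without 1 library has 2 libraries against 1, and the lone library is assumed to vary like the others. Leaving out Cu 3 or Cu 1 leaves the spread to the 2 Control libraries alone, and 1755 and 186 genes then passed an adjusted p of 0.05, against 0 of 8541 with all 4 and 0 without Control 1 or 2. At an unadjusted p of 0.05, 599 genes did so with all 4. No paired analysis was possible because the groups share only 1 replicate number. The depth is unknown, which limits LIPT1 most.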
